A study of Canis lupus familiaris with 21 samples.

Results

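The 5 libraries of lymphocyte-enriched tissue of stage 3 (group 3) were compared with the 5 libraries of stage 1 tumor tissue (group 1) of canine cutaneous histiocytoma (CCH). These were the latest and the earliest stage of tumor regression that the study covered. Membership was taken from the library titles alone, so that 10 of the 21 libraries of the series entered the comparison, and all 800 probes of the panel were compared. The other 11 libraries came from stage 2, from tumor cell-enriched areas (group 2a, n = 5) and from lymphocyte-enriched areas (group 2b, n = 6). They entered the fit and served as a second contrast between lymphocyte-enriched and tumor cell-rich tissue.

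CCH is a skin tumor of Langerhans cells, the dendritic cells of the epidermis, and arises mostly in young dogs. It usually regresses without treatment while lymphocytes move into it from the margin. T cells recognize peptides on major histocompatibility complex (MHC) molecules through their receptor, need a second signal through CD28 and kill with granzymes and perforin, whereas B cells recognize antigen through membrane immunoglobulin and can form follicles in inflamed tissue. The roles of genes given here rest mainly on work in humans and mice.

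Every library of groups 3 and 1 held RNA of 1 privately owned dog, extracted from formalin-fixed, paraffin-embedded (FFPE) tissue of surgically removed tumors. In group 3, lymphocytes had reached the tumor center and formed follicle-like structures, and the dogs were of 5 breeds, with ages between 1.5 and 9 years. In group 1, tumors had been staged as free of lymphocytes, and the dogs were of 4 breeds, with ages between 0.5 and 5 years where an age was given. Of the 6 group 2b libraries, 4 were pools of several dogs. The sources describe an extra step for stage 2 only, in which areas were punched from their block and re-embedded. Stage and kind of tissue changed together between groups 3 and 1, so that they cannot be told apart in this comparison. In tissue extracts, fewer cells of a type and less RNA per cell cannot be told apart either.

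Libraries of group 3 held more counts and had a higher median probe than libraries of group 1. Recovered counts summed to between 945399 and 1253083 in group 3 and to between 484696 and 823763 in group 1. Taken over the 800 probes, the library median averaged 341 ± 17.0 normalized counts in group 3 and 219 ± 40.9 in group 1 (SD, n = 5 each), a difference of 122.5 (two-sided exact permutation test, p = 0.00794, the smallest that 252 splits can give). A measure of RNA integrity, DV200 (the share of fragments over 200 nucleotides in length), stood at 73.2 ± 2.09% in group 3 and 68.5 ± 2.46% in group 1. Its difference of 4.7 percentage points had a two-sided exact permutation p of 0.0238. For group 3 replicate 5 the sources give 2 different DV200 values, and the one in the sample labels was used. Without this library the difference was 5.19 points (exact permutation p = 0.0238). Counts per library, median and RNA quality thus moved with the groups. Their part in the results was not tested beyond the fits given here. A second scale was used beside the deposited one, on which each library was shifted to an equal median.

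On the deposited scale 319 of 800 probes were called (39.9%), 235 of them higher (29.4%) and 84 lower (10.5%) in group 3. Calls here are adjusted p values up to 0.05 in limma, with Benjamini-Hochberg adjustment over 800 probes and all 21 libraries in the fit. With equal library medians 442 were called (55.2%), 115 higher (14.4%) and 327 lower (40.9%). The shift between the scales was 0.66 on the log2 scale, with a median log2 fold change over all probes of 0.14 on the deposited scale and -0.52 with equal medians. The share of higher probes among those called was 73.7% on the deposited scale, 51.0% with TMM factors, 44.5% when quantiles were made equal and 26.0% with equal medians.

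**Figure D1:**
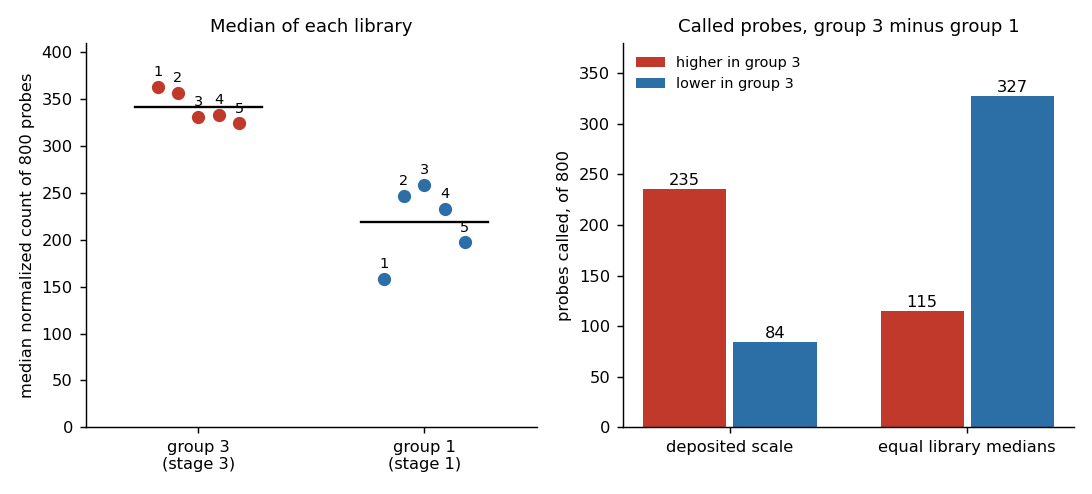
Left, the median normalized count of the 800 probes in each library of group 3 and group 1 (points with replicate numbers, line at the group mean). Right, the number of probes called higher or lower in group 3 on both scales. The 5 medians of group 3 lie between 324 and 363, all above the 5 of group 1, and the calls turn from 235 higher and 84 lower on the deposited scale to 115 higher and 327 lower with equal medians.

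The direction held on both scales for 115 probes that were called higher (14.4% of all) and 84 that were called lower (10.5%). The second scale lowers every log2 fold change by the same 0.66. It could thus hardly undo a lower call, and agreement of the scales is a test for higher calls only. A further 119 probes were called higher on the deposited scale and not called with equal medians, and 242 were called lower with equal medians only. MAPKAPK2, a kinase downstream of p38, was the 1 probe called in opposite directions, with a log2 fold change of 0.35 (adjusted p = 0.049) on the deposited scale and -0.31 (adjusted p = 0.0397) with equal medians. Its deposited call was lost in 9 of 10 fits that left out a single library, that is in every one but the fit without group 1 replicate 2. The libraries did not overlap for 188 probes, with all of group 3 above group 1 in 146 (18.2%) and below it in 42 (5.25%). With DV200 as a covariate, the number of calls on the deposited scale fell to 196, of which 146 were higher and 50 lower. With this covariate and without group 3 replicate 5, whose DV200 is uncertain, 137 were called, 104 higher and 33 lower, in a fit chosen after seeing the data.

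T cell genes formed the group with the highest median. Of 24 measured genes of T cell identity, 20 were called higher in group 3 and 1 lower, and 17 of the 20 were also called higher with equal medians. Among all probes 29.4% were called higher on the deposited scale and 14.4% on both scales. The median log2 fold change of the list was 2.54, against 0.14 over all probes, and 1.88 with equal medians, against -0.52. With DV200 as a covariate 17 were called higher and 0 lower, and 11 and 0 when group 3 replicate 5 was also left out. CD3E (2.63, adjusted p = 0.0987) and CD8A (2.80, adjusted p = 0.071) were not called in that last fit.

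CD3E, a chain of the CD3 complex that passes on the signal of the T cell receptor, had 6134, 5024, 3853, 6011 and 5159.9 normalized counts in group 3, against 42.3, 716, 3402, 2090.4 and 275 in group 1. All group 3 libraries lay above all group 1 libraries, while the group 1 libraries differed among themselves far more than those of group 3. The log2 fold change was 3.18 (SE 0.75, adjusted p = 0.00238). Without group 1 replicate 1, which held by far the fewest CD3E counts, it was 2.25 (adjusted p = 0.00193). CD6, a surface receptor of T cells that binds ALCAM, was steadier, with 473, 606, 459, 485 and 422 normalized counts in group 3 and 16.9, 56.0, 95.5, 87.3 and 41.7 in group 1. Its log2 fold change was 3.23 (SE 0.35, adjusted p = 5.21e-06), and the groups were separated by a wide gap.

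Both coreceptors were higher in group 3. CD8A, the coreceptor of cytotoxic T cells, had 4519.6, 3226, 1384, 3639 and 3252 normalized counts in group 3 and 34.9, 575, 1254, 1043 and 193 in group 1 (log2 fold change 3.09, SE 0.71, adjusted p = 0.00204). Group 3 replicate 3 was lowest and stood close to the highest library of group 1. CD4, the coreceptor of helper T cells, had 938, 318, 608, 996 and 378 normalized counts in group 3 and 33.9, 200.2, 130.3, 89.0 and 39.8 in group 1 (log2 fold change 2.86, SE 0.44, adjusted p = 9.08e-05). The probe for the constant region of the T cell receptor beta chain (TRBC), outside the list, averaged 7594 ± 2009.7 in group 3 and 1394 ± 1261 in group 1, and SH2D1A, an adaptor of SLAM receptors, 2227 ± 1200.2 in group 3 and 359 ± 277 in group 1. In both genes the groups did not overlap, as the rule for choosing them required (log2 fold changes 3.14 and 3.05, adjusted p = 0.000318 each).

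The 1 T cell gene called lower was GATA3, a transcription factor of helper T cells that epithelium also makes, at 106 ± 23.8 normalized counts in group 3 and 153 ± 38.0 in group 1 (log2 fold change -0.52, adjusted p = 0.0439). This call was lost without group 1 replicate 1, 3, 4 or 5 or group 3 replicate 1 or 4, with adjusted p values between 0.0536 and 0.141.

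Among 10 genes of T cell receptor signaling, 7 were called higher and 0 lower, 5 of them on both scales. The shares of all probes called higher were 29.4% on the deposited scale and 14.4% on both scales. LCK, the kinase that phosphorylates CD3 chains, averaged 1974 ± 405 normalized counts in group 3 and 483 ± 454 in group 1 (log2 fold change 2.72, SE 0.56, adjusted p = 0.000828). PLCG1, a phospholipase that signals below the receptor, shared the smallest adjusted p of all 800 probes (5.21e-06) with CD6 and TYROBP. It had 960.0, 825, 687, 916 and 744 normalized counts in group 3, against 132, 179.8, 308, 275 and 167 in group 1 (log2 fold change 2.02, SE 0.22).

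The 4 measured receptors of the CD28 family were all called higher in group 3, against 29.4% of all probes. ICOS, a costimulator of activated T cells, had 1512, 2203, 1458, 1495 and 2010.2 normalized counts in group 3, against 36.0, 197, 1346, 919 and 117 in group 1 (log2 fold change 2.75, SE 0.69, adjusted p = 0.00364). Group 1 replicate 3 came within reach of the lowest group 3 library. CD28 itself averaged 636 ± 104 in group 3 and 139 ± 118 in group 1 (2.75, SE 0.50, adjusted p = 0.000326), and the inhibitory receptor PDCD1, known as PD-1, averaged 377 ± 129 in group 3 and 111 ± 87.2 in group 1 (2.07, SE 0.42, adjusted p = 0.000808). CTLA4, which competes with CD28 for its ligands, averaged 1472 ± 688 in group 3 and 635 ± 449.7 in group 1, with overlapping libraries (1.34, SE 0.43, adjusted p = 0.0185). Its call was lost with equal medians (0.68, adjusted p = 0.157), without group 1 replicate 5 and without group 3 replicate 5 (adjusted p between 0.0549 and 0.0598). With DV200 as a covariate 2 of the 4 receptors were called higher, and ICOS (2.31, adjusted p = 0.0645) and CTLA4 (1.25, adjusted p = 0.111) were not.

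The ligands of these receptors did not move together. Of 6 measured B7 ligands, 2 were called higher and 1 lower, on both scales. Over all 800 probes 29.4% were called higher and 10.5% lower on the deposited scale. For 6 genes the counts are near these shares, so that mixed directions are no trait of this family. CD86, the costimulatory ligand of CD28, had 2161, 2500.4, 2635, 1806 and 2558 normalized counts in group 3, against 4552, 4113, 4263, 5942 and 3962 in group 1. It fell by 0.97 on the log2 scale (SE 0.24, adjusted p = 0.00377), with every group 3 library below every group 1 library. The inhibitory ligands CD274 (PD-L1) and PDCD1LG2 (PD-L2) were higher, CD274 at 477 ± 83.5 in group 3 and 173 ± 71.7 in group 1 (log2 fold change 1.60, SE 0.35, adjusted p = 0.00117), and PDCD1LG2 at 848 ± 279 in group 3 and 240.4 ± 133 in group 1 (1.97, SE 0.41, adjusted p = 0.000936). CD80, the other costimulatory ligand, had 788 ± 143 in group 3 and 554 ± 209 in group 1 and was not called (0.58, SE 0.26, adjusted p = 0.0832). It was called without group 1 replicate 3 or 4 (adjusted p between 0.0366 and 0.0405), and its log2 fold change was -0.08 with equal medians.

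Genes of cytotoxic lymphocytes followed the T cell genes. Of 21 measured, 15 were called higher and 1 lower, 14 of the 15 on both scales, against 29.4% and 14.4% of all probes called higher. The median log2 fold change was 2.24 on the deposited scale and 1.59 with equal medians. With DV200 as a covariate 11 were called higher (7 when group 3 replicate 5 was also left out), and GZMB (2.86, adjusted p = 0.0528) and CCL5 (2.55, adjusted p = 0.0867) were not. The list was led by GZMK, a granzyme of memory CD8 T cells, which had the highest log2 fold change of all probes (3.96, SE 0.63, adjusted p = 0.000102).

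GZMK stood at 6533, 10705, 4839, 9249 and 5863 normalized counts in group 3, against 94.2, 469.8, 2412, 939 and 199 in group 1. EOMES, a transcription factor of effector and memory CD8 T cells, stood at 3264, 2267, 1898, 2650.4 and 1925 in group 3, against 61.4, 388, 874, 371 and 89.1 in group 1 (log2 fold change 3.32, SE 0.51, adjusted p = 9.08e-05). Neither gene overlapped between the groups, as the rule for choosing both required. NKG7, a protein of cytotoxic granules, averaged 3021 ± 991 in group 3 and 539 ± 472 in group 1 (2.97, SE 0.58, adjusted p = 0.000575).

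GZMB behaved differently in 1 library. This granzyme, which activates caspases in target cells, had 5292, 4738, 613, 5419.8 and 5351 normalized counts in group 3, against 273, 1589, 729, 461 and 259.6 in group 1 (log2 fold change 2.70, SE 0.80, adjusted p = 0.0107). Group 3 replicate 3 lay within the range of group 1, and without it the log2 fold change was 3.32 (adjusted p = 0.00196). PRF1, the pore-forming perforin, averaged 1109 ± 519.7 in group 3 and 241 ± 254 in group 1 (2.59, SE 0.56, adjusted p = 0.00114), and the chemokine CCL5, which T cells release on activation, 49790.4 ± 24312 in group 3 and 12952 ± 12757 in group 1 (2.87, SE 0.81, adjusted p = 0.00811). Both overlapped between the groups. The 1 gene called lower, the SLAM receptor CD244, was at 87.8 ± 15.6 in group 3 and 217 ± 157 in group 1 (-0.99, adjusted p = 0.0449). Its call was lost without group 1 replicate 3 or 4 or any 1 library of group 3 (adjusted p between 0.0505 and 0.144).

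A probe without a gene name in the annotation, LOC480600, had the third highest log2 fold change (3.48, SE 0.49, adjusted p = 4.03e-05). It had 450.2, 219, 269.9, 351 and 309 normalized counts in group 3, against 4.23, 40.7, 67.9, 34.6 and 30.3 in group 1. No library overlapped, as the rule for choosing this probe required. SPP1, described with the macrophage genes, was second.

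**Figure D2:**
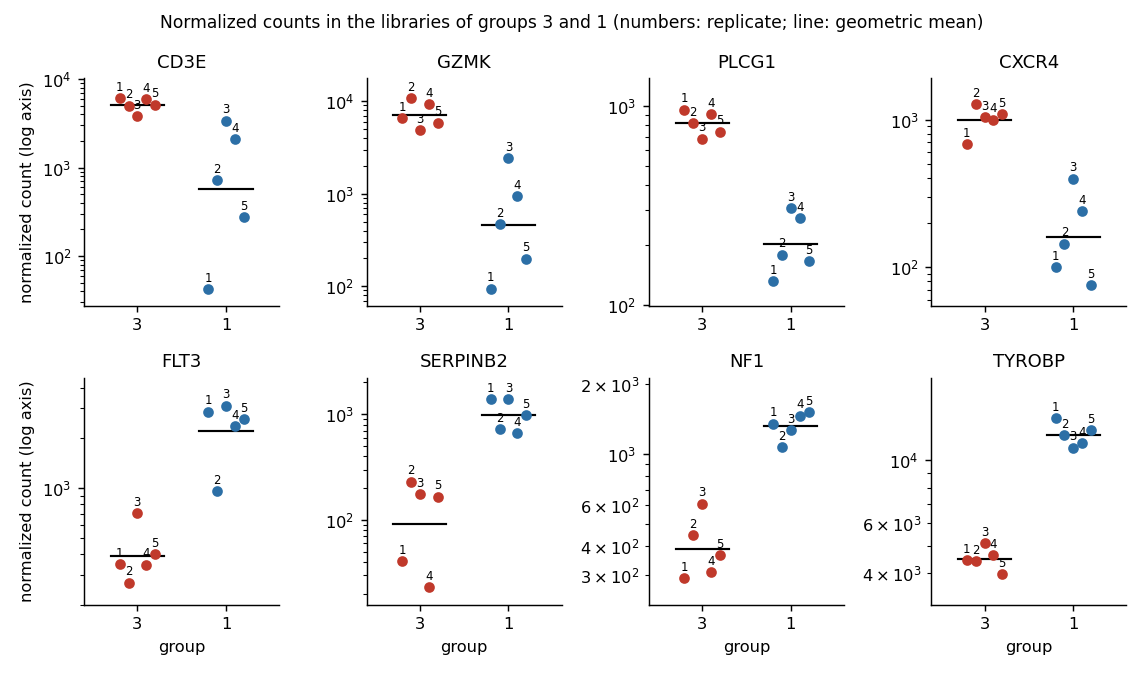
Normalized counts (log axis) of 4 genes called higher and 4 called lower, in the 5 libraries of group 3 and the 5 of group 1, with replicate numbers and the geometric mean of the value plus 1 as a line. CD3E, GZMK, PLCG1 and CXCR4 are higher in every group 3 library, FLT3, SERPINB2, NF1 and TYROBP are lower in every group 3 library, and CD3E and GZMK are lowest in group 1 replicate 1 and spread far more within group 1 than within group 3.

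The group 1 libraries were not alike in lymphocyte transcripts. Summed over the 24 T cell identity genes, normalized counts were 33984, 23354, 20489.9, 28767 and 22283 in group 3 and 1876, 5069.9, 13745, 10294 and 3020.3 in group 1. Every group 1 library lay below every group 3 library, but group 1 replicates 3 and 4 held far more T cell transcripts than replicate 1, although the stage is defined by the absence of lymphocytes. The sum over the 21 cytotoxic genes was lowest in group 1 replicate 1 as well, at 2074.6, against 35253 and 35130.2 in replicates 3 and 4. In group 3 it ran between 39732 in replicate 3 and 118852 in replicate 1. CCL5 alone averaged 49790.4 normalized counts in group 3 and 12952 in group 1. On average it thus made up most of this sum, which says little of the other cytotoxic genes. The 17 reference genes on the list summed to between 12552 and 14506 in group 3 and to between 13577 and 14687 in group 1. The deposited scaling sets reference genes equal between libraries, so that similar sums follow from it and are no control. With equal medians 12 of the 17 were called lower and 0 higher.

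Among 18 inhibitory receptors and genes of regulatory T cells, 9 were called higher and 2 lower, and 5 of each with equal medians. All 800 probes were called higher at 29.4% and lower at 10.5% on the deposited scale, and at 14.4% and 40.9% with equal medians. The 2 of 18 are near the share of all probes called lower. TIGIT, an inhibitory receptor of T and NK cells, averaged 567 ± 187 normalized counts in group 3 and 151 ± 116 in group 1 (log2 fold change 2.35, SE 0.50, adjusted p = 0.00107). LAG3, which binds MHC class II, averaged 313 ± 70.9 in group 3 and 95.7 ± 52.7 in group 1 (1.85, SE 0.33, adjusted p = 0.000308). FOXP3, the transcription factor that defines regulatory T cells, was near the floor of the assay with 25.8 ± 9.07 in group 3 and 22.3 ± 6.66 in group 1 and was not called (0.17, SE 0.26, adjusted p = 0.644). The 2 lower genes were IL10, an inhibitory cytokine (667 ± 373 in group 3 and 1773 ± 883 in group 1, log2 fold change -1.41, adjusted p = 0.044), and ENTPD1, which breaks down ATP (868 ± 310.0 in group 3 and 1471 ± 227 in group 1, -0.81, adjusted p = 0.0304). The IL10 call was lost without group 1 replicate 1, 2 or 5 or group 3 replicate 1, 2, 3 or 4 (adjusted p up to 0.116), and the ENTPD1 call without group 1 replicate 1, 3 or 4 or group 3 replicate 1 or 5 (up to 0.0814). Neither was called with DV200 as a covariate, where IL10 had a log2 fold change of -0.56 (adjusted p = 0.563) and ENTPD1 of -0.97 (adjusted p = 0.0633).

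B cell and plasma cell genes were higher on balance, but more unevenly. Of 25 measured, 13 were called higher and 1 lower on the deposited scale, 10 higher and 5 lower with equal medians, and 6 higher and 1 lower with DV200 as a covariate. The shares of all probes called higher were 29.4% on the deposited scale and 14.4% with equal medians. The median log2 fold change was 1.43 on the deposited scale and 0.77 with equal medians. Without group 3 replicate 3 the count was 12 higher and 2 lower. Among the genes not called with DV200 as a covariate were IGHG (1.56, adjusted p = 0.359), MS4A1 (1.56, adjusted p = 0.127) and CR2 (1.33, adjusted p = 0.114).

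Immunoglobulin heavy chains led this list. IGHM, the heavy chain of IgM, had 1667, 1763, 5549, 5136 and 1323 normalized counts in group 3, against 49.7, 246, 907, 483 and 148 in group 1 (log2 fold change 3.41, SE 0.63, adjusted p = 0.000348). IGHG, the heavy chain of IgG, had 2639, 863, 4849.9, 1947 and 911 in group 3, against 97.3, 124, 576, 685 and 100.4 in group 1 (3.06, SE 0.99, adjusted p = 0.0198). Neither overlapped, although the highest group 1 library of IGHG was close to the lowest of group 3, and its call was lost without group 1 replicate 5 (2.78, adjusted p = 0.051). CD79A, a signaling chain of the B cell receptor, averaged 1189 ± 545 in group 3 and 213 ± 113 in group 1 (2.61, SE 0.41, adjusted p = 0.000102).

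Genes of B cell identity were far higher in 1 library than in the rest. MS4A1, which encodes CD20, had 60.8, 84.0, 1039.5, 211 and 54.0 normalized counts in group 3, against 13.8, 50.9, 25.7, 29.6 and 22.7 in group 1 (log2 fold change 2.41, SE 0.61, adjusted p = 0.00377). All 5 libraries of group 3 were above group 1, but group 3 replicate 3 stood far above the other 4, and without it the log2 fold change was 1.70 (adjusted p = 0.00498). PAX5, the transcription factor that maintains B cell identity, was not called, with 44.6, 70.8, 784, 202 and 49.7 in group 3 and 61.4, 117, 23.9, 21.4 and 32.2 in group 1 (1.52, SE 0.69, adjusted p = 0.0891). It was called without group 1 replicate 2 or group 3 replicate 1 (adjusted p = 0.0402 and 0.0478), and without group 3 replicate 3 its log2 fold change was 0.85 (adjusted p = 0.271). PAX5 was called on recovered counts in edgeR (2.16, adjusted p = 0.0268) and DESeq2 (2.17, adjusted p = 0.00685). The library with the highest B cell identity genes was therefore the library with the lowest GZMB, CD8A and GZMK of group 3.

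TNFRSF13C, the receptor for the survival factor BAFF, also stood apart in this library. It had 532, 416, 2497, 827 and 576 normalized counts in group 3, against 1713, 1023, 1050.1, 1148 and 921 in group 1, and was not called (log2 fold change -0.58, SE 0.37, adjusted p = 0.233). Without group 3 replicate 3 it was called lower (-1.002, adjusted p = 0.00715), as it was with equal medians (-1.24, adjusted p = 0.0173). BTK, a kinase of the B cell receptor that myeloid cells also use, was the 1 gene of the list called lower, at 707 ± 300.4 in group 3 and 1098 ± 232 in group 1 (-0.69, SE 0.23, adjusted p = 0.0244). That call was lost without group 1 replicate 5 or group 3 replicate 1 or 5 (adjusted p between 0.0574 and 0.0722).

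Of 19 genes of follicles and lymphoid homing, 13 were called higher and 0 lower on the deposited scale, and 7 higher and 2 lower with equal medians. The shares of all probes called higher were 29.4% on the deposited scale and 14.4% with equal medians. CXCR4, the receptor for CXCL12, had 678, 1271, 1045, 1001 and 1093 normalized counts in group 3, against 100.5, 144, 398, 240.5 and 75.8 in group 1 (log2 fold change 2.63, SE 0.34, adjusted p = 2.5e-05). IL21R, the receptor for interleukin 21, averaged 619.6 ± 143 in group 3 and 141 ± 74.9 in group 1 (2.33, SE 0.35, adjusted p = 8.31e-05). No library overlapped for either gene. CCL19, a ligand of CCR7, averaged 612 ± 201 in group 3 and 210.0 ± 229 in group 1 with overlap (2.21, SE 0.58, adjusted p = 0.00489), and lymphotoxin beta (LTB) 113 ± 38.7 in group 3 and 37.1 ± 14.9 in group 1 without overlap (1.62, SE 0.34, adjusted p = 0.000936). CXCR5, the receptor that leads lymphocytes into follicles, was not called, at 79.4, 89.6, 353, 129 and 74.5 in group 3 and 70.9, 93.3, 101, 92.2 and 112 in group 1 (0.36, SE 0.34, adjusted p = 0.418). Its sign turned with equal medians (-0.30), after quantile normalization (-0.21) and without group 3 replicate 3 (-0.03). ITGAL, the integrin chain with which lymphocytes bind ICAM1, was among the adhesion genes called higher (1666 ± 416 in group 3 and 242 ± 163 in group 1, log2 fold change 3.04, SE 0.40, adjusted p = 2.5e-05).

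**Figure D3:**
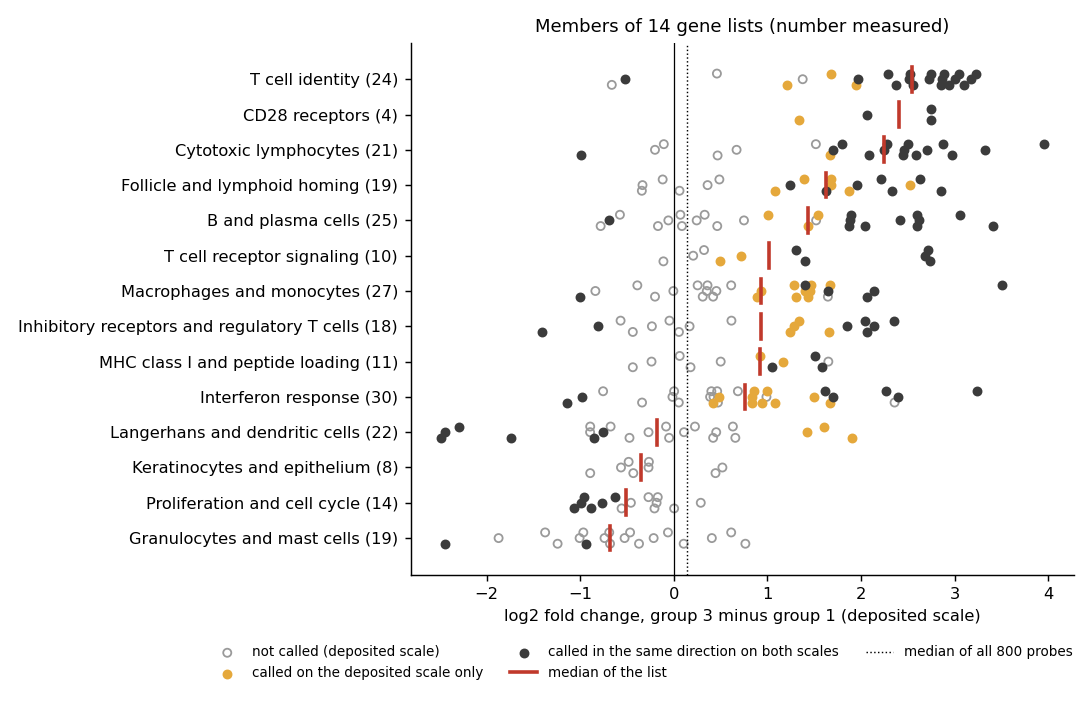
Log2 fold changes of the members of 14 gene lists (points), group 3 minus group 1 on the deposited scale, with list medians in red and the median of all 800 probes (0.14) dotted. T cell and cytotoxic lists lie furthest to the right and keep most calls on both scales (dark points), most interferon and macrophage genes called higher are called on the deposited scale only (yellow), and the lists of Langerhans and dendritic cells, keratinocytes, proliferation, and granulocytes and mast cells have medians below 0.

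Macrophage and interferon genes depended more on the scale. Of all 800 probes 29.4% were called higher on the deposited scale and 14.4% with equal medians, and the second share is near that of both lists. Of 27 macrophage and monocyte genes, 14 were called higher and 1 lower on the deposited scale, 5 higher and 3 lower with equal medians, and 7 higher and 0 lower with DV200 as a covariate. SPP1, the secreted matrix protein osteopontin, had 7486, 4597, 1685, 6029.9 and 5645 normalized counts in group 3, against 244, 3079, 235, 179.6 and 326 in group 1 (log2 fold change 3.50, SE 0.78, adjusted p = 0.00147). The groups overlapped because group 1 replicate 2 exceeded group 3 replicate 3. APOE, a lipid carrier that macrophages release, averaged 5065 ± 2728 in group 3 and 1072 ± 222 in group 1 (2.06, SE 0.56, adjusted p = 0.00618), and the complement chain C1QB 3959 ± 1314 in group 3 and 1249.6 ± 1029 in group 1 (2.14, SE 0.55, adjusted p = 0.00412). The mannose receptor MRC1 was the gene called lower (523 ± 157 in group 3 and 1108 ± 524 in group 1, -1.002, adjusted p = 0.0328). That call was lost without group 1 replicate 2 or 5 or group 3 replicate 3, 4 or 5 (adjusted p between 0.0516 and 0.0986). The sum over the macrophage list ran between 23980 and 41016 in group 3 and between 9065 and 22680 in group 1.

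NR1H3, a nuclear receptor for oxysterols that macrophages use, was outside this list and one of the 12 highest probes of the panel called on both scales without overlap. It had 4477, 1225, 585, 3503 and 1742 normalized counts in group 3, against 117, 548, 266, 178 and 121 in group 1 (log2 fold change 3.13, SE 0.56, adjusted p = 0.000308). Clusterin (CLU), an extracellular chaperone that inhibits complement, averaged 11009 ± 4003 in group 3 and 1698 ± 1209 in group 1, likewise without overlap (2.85, SE 0.47, adjusted p = 0.000145).

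Of 30 interferon response genes, 15 were called higher and 2 lower on the deposited scale, 5 higher and 6 lower with equal medians, and 7 higher and 1 lower with DV200 as a covariate. The 15 of 30 exceed the 29.4% of all probes called higher on the deposited scale. The 5 of 30 are near the 14.4% called higher with equal medians. IDO1, the interferon-induced enzyme that breaks down tryptophan, had 3123, 2268, 1193, 3393 and 4490.2 normalized counts in group 3, against 29.6, 514, 1061, 384 and 265 in group 1 (log2 fold change 3.24, SE 0.71, adjusted p = 0.00136). All group 3 libraries exceeded group 1, with group 3 replicate 3 close to group 1 replicate 3. The transcription factor IRF1 averaged 3179 ± 485 in group 3 and 1038 ± 413 in group 1 (1.70, SE 0.28, adjusted p = 0.00012), and the GTPase GBP5 1293 ± 161 in group 3 and 317 ± 184 in group 1 (2.26, SE 0.56, adjusted p = 0.0035). IFNGR1, a chain of the receptor for interferon gamma, ran the other way, with 1599, 2207, 2592, 2090.4 and 1571 in group 3 and 4241, 4071, 3216, 3504 and 4646 in group 1 (-0.98, SE 0.20, adjusted p = 0.000844). No library overlapped.

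Among 11 genes of MHC class I and peptide loading, 5 were called higher and 0 lower on the deposited scale, and 3 higher and 3 lower with equal medians. The shares of all probes called higher and lower were 29.4% and 10.5% on the deposited scale, and 14.4% and 40.9% with equal medians. The median log2 fold change of this list was 0.92 on the deposited scale and 0.26 with equal medians. The class I chain DLA-64 had 4615, 3858, 4014, 3701 and 3431 normalized counts in group 3, against 999, 1269, 1513, 1878 and 1031 in group 1 (log2 fold change 1.59, SE 0.19, adjusted p = 1.58e-05), and the groups were well apart. TAP1, a subunit of the peptide transporter, averaged 1889.7 ± 137 in group 3 and 929 ± 199 in group 1 (1.05, SE 0.18, adjusted p = 0.000179), and NLRC5, the activator of class I genes, 1410.3 ± 138 in group 3 and 541 ± 237 in group 1 (1.51, SE 0.29, adjusted p = 0.000494). B2M, the light chain of class I, had the most counts of all probes in every library and was not called, with 190294 ± 9152 in group 3 and 188934 ± 57581 in group 1 (0.06, SE 0.20, adjusted p = 0.839). With equal medians it was called lower (-0.60, adjusted p = 0.00427), and its sign also turned with TMM factors (-0.19).

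DLA88, a class I heavy chain, had 9835, 23962, 25021, 15830.2 and 17505 normalized counts in group 3, against 6457, 5185, 6482, 4607 and 5360.4 in group 1. The groups did not overlap, yet it was not called in the fit of all libraries, whose spread is pooled over 4 groups (log2 fold change 1.65, SE 1.10, adjusted p = 0.25). In a fit of groups 3 and 1 only it was called (adjusted p = 0.00176), as it was in DESeq2 (1.71, adjusted p = 0.0241). Of 11 genes of the MHC class II list, which also holds CD4, 3 were called higher and 0 lower on the deposited scale. With equal medians 1 was called higher and 3 lower, and the 1 higher was the T cell coreceptor CD4. These shares are near those of all probes (29.4% higher on the deposited scale and 14.4% with equal medians). HLA-DRB1, as the panel names the class II beta chain, averaged 22815 ± 5258 in group 3 and 11512 ± 2374 in group 1 without overlap (0.98, SE 0.22, adjusted p = 0.00147), and with equal medians it was not called (0.32, adjusted p = 0.235).

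Most genes of Langerhans and dendritic cells were not called. Of 22 measured, 6 were called lower and 3 higher on the deposited scale, 10 lower and 0 higher with equal medians, and 5 lower and 0 higher with DV200 as a covariate. Of all 800 probes 10.5% were called lower on the deposited scale and 40.9% with equal medians. The 10 of 22 are thus near the share of all probes. The median log2 fold change was -0.18 on the deposited scale and -0.84 with equal medians. FLT3, the growth factor receptor of dendritic cell precursors, had 349, 271, 708, 348 and 401 normalized counts in group 3, against 2867, 962, 3117, 2349 and 2599.7 in group 1 (-2.49, SE 0.37, adjusted p = 7.57e-05). All group 3 libraries lay below all group 1 libraries.

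CCR6, the receptor that guides Langerhans cell precursors to skin, had 131, 449, 734, 215 and 304 normalized counts in group 3, against 1218, 490.2, 1349, 1094 and 1351 in group 1 (log2 fold change -1.74, SE 0.36, adjusted p = 0.000808). Group 1 replicate 2 fell within the range of group 3, as it was also the lowest group 1 library for FLT3. TNFSF11, the cytokine RANKL, had 26.1, 43.1, 32.4, 27.9 and 19.4 in group 3 and 122, 169.6, 105, 82.4 and 362 in group 1 (-2.29, SE 0.48, adjusted p = 0.000996). FCER1A, the binding chain of the IgE receptor on mast cells and some dendritic cells, had 65.7, 44.2, 37.8, 45.5 and 51.9 in group 3 and 98.4, 141, 272, 557 and 635 in group 1 (-2.44, SE 0.83, adjusted p = 0.0264). The groups of FCER1A did not overlap, but the call was lost without group 1 replicate 4 (adjusted p = 0.0633) or 5 (0.0694). The log2 fold change of FCER1A was -1.53 with DV200 as a covariate (adjusted p = 0.301).

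The defining marker of Langerhans cells was close to the floor in both groups. CD207 (langerin) had 22.3, 19.9, 15.1, 15.8 and 7.56 normalized counts in group 3 and 18.0, 30.5, 38.5, 21.4 and 28.4 in group 1 (log2 fold change -0.76, SE 0.27, adjusted p = 0.0295), so that the panel gave the tumor's cell of origin little signal by this gene. Its call was lost without group 1 replicate 2, 3 or 5 or group 3 replicate 5 (adjusted p between 0.0584 and 0.0977). CD1A6, a lipid-presenting molecule of the CD1 family, had 83.1, 52.0, 61.5, 21.4 and 33.5 in group 3 and 28.6, 25.4, 147, 534 and 140.2 in group 1 and was not called (-1.07, SE 0.66, adjusted p = 0.215). It was called lower with equal medians (-1.73, adjusted p = 0.0286) and on recovered counts in edgeR (-1.80, adjusted p = 0.0376) and DESeq2 (-1.80, adjusted p = 0.0147). The 3 genes called higher, IRF8 and XCR1, which mark cross-presenting dendritic cells, and the lectin CD209, had log2 fold changes of 1.43, 1.60 and 1.90 and were called neither with equal medians nor with DV200 as a covariate. The CD209 call was lost without group 1 replicate 1 or 4 or group 3 replicate 2 or 5 (adjusted p between 0.0562 and 0.0901).

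Several genes outside the cell type lists fell in group 3 to a small fraction of their level in group 1. FABP7, a fatty acid binding protein, had 39.7, 1.11, 15.1, 1 and 1.08 normalized counts in group 3, against 113, 156, 112, 267 and 265 in group 1. Its log2 fold change was the lowest of all probes (-4.92, SE 0.88, adjusted p = 0.000308), although it depends on the pseudocount and was -3.55 with a pseudocount of 8. SERPINB2, an inhibitor of plasminogen activators, had 40.9, 231, 176, 23.2 and 166 in group 3, against 1381, 723, 1389.7, 666 and 983 in group 1 (-3.40, SE 0.56, adjusted p = 0.000145). The groups of both genes did not overlap, as the rule for choosing them required.

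NF1, the RAS inhibitor neurofibromin, and TYROBP, a signaling adaptor of myeloid receptors, were the lower genes with the smallest adjusted p values. TYROBP had 4461, 4422, 5104, 4631 and 3958 normalized counts in group 3, against 14099, 12284, 11077, 11498 and 12735 in group 1 (log2 fold change -1.45, SE 0.15, adjusted p = 5.21e-06). NF1 had 290.2, 445, 609.9, 308 and 366 in group 3, against 1352, 1069, 1263, 1463 and 1512 in group 1 (-1.76, SE 0.21, adjusted p = 1.25e-05). Libraries within a group were alike and far from the other group in both genes.

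NF1 belongs to a list of RAS, MAP kinase and PI3 kinase genes, of which 8 of 31 were called lower and 2 higher. With equal medians 22 were called lower and 1 higher. All 800 probes were called lower at shares of 10.5% on the deposited scale and 40.9% with equal medians. Both counts of lower genes lie above these shares, but the second scale lowers every log2 fold change by 0.66. DUSP6, a phosphatase that ERK signaling induces, averaged 3200.0 ± 288 normalized counts in group 3 and 8126 ± 938 in group 1 (log2 fold change -1.34, SE 0.18, adjusted p = 2.5e-05), and PIK3CG, a catalytic subunit of PI3 kinase in leukocytes, 895 ± 118 in group 3 and 2073 ± 366 in group 1 (-1.20, SE 0.16, adjusted p = 2.5e-05). RPS6, a ribosomal protein, averaged 23187 ± 5837 in group 3 and 50476 ± 7429 in group 1 (-1.15, SE 0.21, adjusted p = 0.00033). None of the 3 overlapped.

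Further lower genes were related to purine signaling, cytokines and receptors. NT5E, the ectoenzyme CD73 that makes adenosine, had 279, 233, 222, 141 and 326 normalized counts in group 3, against 1519, 777, 461, 1514 and 436 in group 1 (log2 fold change -1.81, SE 0.38, adjusted p = 0.00102), and the adenosine receptor ADORA2A averaged 167 ± 32.2 in group 3 and 439 ± 106 in group 1 (-1.38, SE 0.36, adjusted p = 0.00454). The cytokine LIF averaged 115 ± 57.4 in group 3 and 382 ± 122 in group 1 (-1.88, SE 0.45, adjusted p = 0.00255), and the Toll-like receptor TLR10 107 ± 77.8 in group 3 and 367 ± 66.5 in group 1 (-1.98, SE 0.42, adjusted p = 0.00103). These 4 genes did not overlap, as the rule for choosing them required. Estrogen receptor beta (ESR2), at 10.9 ± 6.18 in group 3 and 29.2 ± 6.61 in group 1, was near the floor (-1.64, adjusted p = 0.0408), and its call was lost without group 1 replicate 1, 2, 4 or 5 or group 3 replicate 3 or 4 (adjusted p between 0.0542 and 0.139).

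Of 14 proliferation and cell cycle genes, 6 were called lower and 0 higher, and 13 lower with equal medians. The shares of all 800 probes called lower were 10.5% on the deposited scale and 40.9% with equal medians. Both counts lie above these shares, but the second scale lowers every log2 fold change by 0.66. MYC, a transcription factor of growth, averaged 532 ± 94.6 normalized counts in group 3 and 1069 ± 229.7 in group 1 without overlap (log2 fold change -0.995, SE 0.27, adjusted p = 0.00582). Cyclin D1 (CCND1) averaged 783 ± 283 in group 3 and 1477 ± 348 in group 1 (-0.96, SE 0.27, adjusted p = 0.00774). The lower genes also included 2 inhibitors of cyclin-dependent kinases. CDKN2C averaged 608 ± 149 in group 3 and 1023 ± 172 in group 1 without overlap (-0.77, SE 0.19, adjusted p = 0.00325), and CDKN1A, a target of p53, 1239 ± 629.9 in group 3 and 2571 ± 948 in group 1 with overlap (-1.06, SE 0.38, adjusted p = 0.0301). The CDKN1A call was lost without group 1 replicate 1, 3 or 4 or group 3 replicate 1, 2 or 4 (adjusted p between 0.0555 and 0.0771), and MYC (-0.76, adjusted p = 0.108) and CDKN2C (-0.42, adjusted p = 0.154) were not called with DV200 as a covariate. MKI67, the marker of dividing cells, was not called on the deposited scale, at 977, 1568, 515, 1080.0 and 1371 in group 3 and 1055, 921, 1307, 774 and 1177 in group 1 (0.00, SE 0.25, adjusted p = 0.995). With equal medians it was called lower (-0.66, adjusted p = 0.0491).

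Other cell types that a skin sample can hold were read from their marker lists. Of 19 genes of granulocytes and mast cells, 2 were called lower and 0 higher, FCER1A and HDC, the enzyme that makes histamine (15.5 ± 2.66 normalized counts in group 3 and 31.5 ± 10.5 in group 1, log2 fold change -0.94, adjusted p = 0.0287). The HDC call was lost without group 1 replicate 2, 3 or 5 or group 3 replicate 4 or 5 (adjusted p between 0.0506 and 0.0781). The 2 of 19 are no more than the share of all probes called lower on the deposited scale (10.5%). With equal medians 12 of the 19 were called lower, against 40.9% of all probes. None of 8 keratinocyte and epithelial genes was called on the deposited scale and 4 were called lower with equal medians, and the sum over this list ran between 1033 and 4545 in group 3 and between 1135 and 6451 in group 1. Of 13 fibroblast and matrix genes 4 were called higher and 0 lower, and of 8 endothelial genes 3 were called higher and 0 lower, shares near the 29.4% of all probes called higher. The sum over the fibroblast list ran between 18727 and 39529 in group 3 and between 7969 and 48066 in group 1. The part of epidermis and stroma in the results was not tested.

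The lymphocyte-enriched and tumor cell-rich areas of stage 2 gave a second contrast that shares no library with the first, and the difference between the 2 contrasts was tested. For each probe the log2 fold change of group 2b minus group 2a was subtracted from that of group 3 minus group 1. No probe was called (0 of 800, 0%), with a smallest adjusted p of 0.396 in limma, 57 probes at an unadjusted p under 0.05, where 40 are expected by chance, and likewise 0 calls in edgeR (60 at an unadjusted p under 0.05) and DESeq2 (69). Of the 57, 48 were negative and 9 positive. The median half-width of the 95% interval of this difference was 0.84 on the log2 scale and that of group 3 minus group 1 was 0.61.

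Most of the 5 probes with the smallest p, none of them called, were B cell genes. The first 5 were TNFRSF13C, IL4, CXCR5, PAX5 and the complement receptor CR2 of mature B cells and follicular dendritic cells, all negative and with an adjusted p of 0.396. The log2 fold change of PAX5 was 1.52 for group 3 minus group 1 and 4.85 for group 2b minus group 2a, where it averaged 643 ± 227 normalized counts in group 2b and 26.5 ± 21 in group 2a, so that the difference was -3.34 (SE 0.96). CR2 averaged 312 ± 340.2 normalized counts in group 3, against 59.6 ± 25.8 in group 1, and 1149 ± 453 in group 2b, against 58.5 ± 11.8 in group 2a (difference -2.31, SE 0.67). For TNFRSF13C the difference was -2.06 (SE 0.51), for CXCR5 -1.71 (SE 0.47) and for IL4, a cytokine near the floor, -1.35 (SE 0.36).

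Leaving out 1 library changed this result. Without group 3 replicate 3, the library rich in B cell genes, 13 probes were called and all were negative. Among them were PAX5 (-4.01, adjusted p = 0.0128), CR2 (-2.84, adjusted p = 0.00782), TNFRSF13C (-2.49, adjusted p = 0.00173) and CXCR5 (-2.10, adjusted p = 0.00214). That library was the only one of group 3 in the range of group 2b for these genes. It was also the highest of group 3 for them, so that leaving it out makes their difference more negative. The calls without it are therefore no independent support for a difference.

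**Figure D4:**
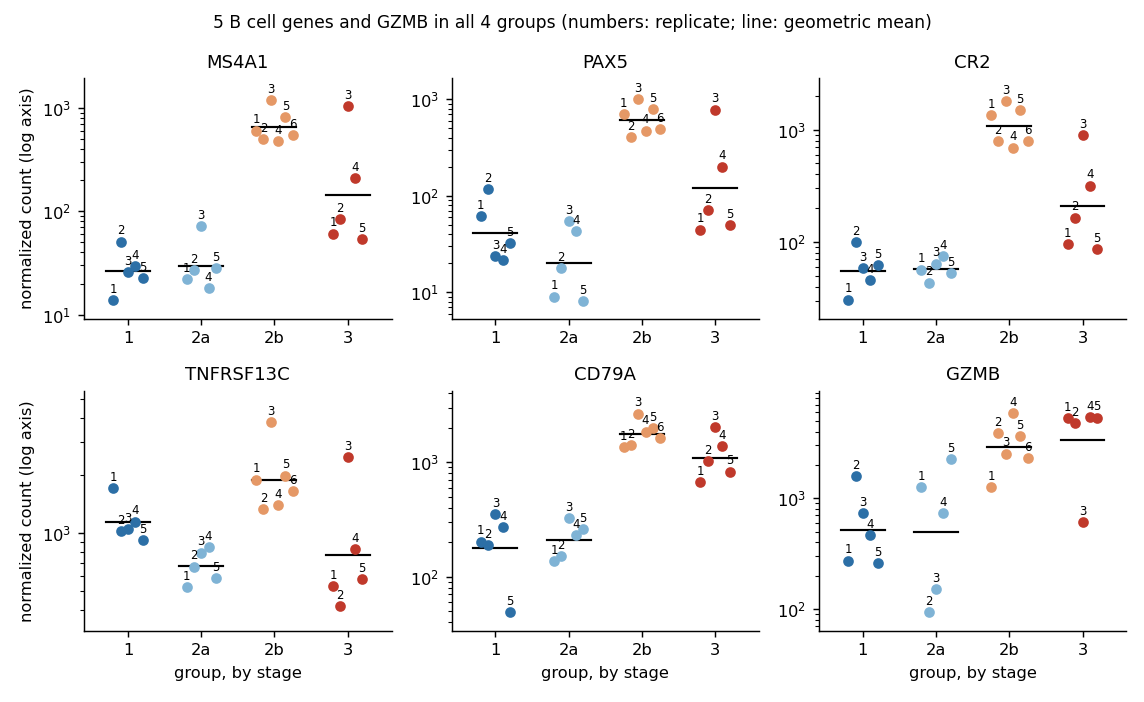
Normalized counts (log axis) of 5 B cell genes and of GZMB in groups 1, 2a, 2b and 3, with replicate numbers and the geometric mean of the value plus 1 as a line. For MS4A1, PAX5, CR2 and TNFRSF13C, group 3 replicate 3 lies within the range of group 2b and the other 4 group 3 libraries lie below it, whereas for GZMB group 3 replicate 3, with 613, lies below the other 4.

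Many probes were called the same way in both contrasts. Across the 800 probes, which are not independent replicates, their log2 fold changes correlated with a Pearson r of 0.861 and a Spearman rho of 0.830, given as a description. Of the 235 probes called higher in group 3, 213 were also called higher in group 2b, out of 258 called higher there. Of the 84 called lower, 34 were also called lower in group 2b, out of 52 called lower there, and 0 probes were called in opposite directions. The probes called higher had a median log2 fold change of 1.51 for group 3 minus group 1 and 1.50 for group 2b minus group 2a. The 84 probes called lower had medians of -0.88 and -0.44 in the same 2 comparisons. These probes were chosen on the first comparison, which can make its own values larger.

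**Figure D5:**
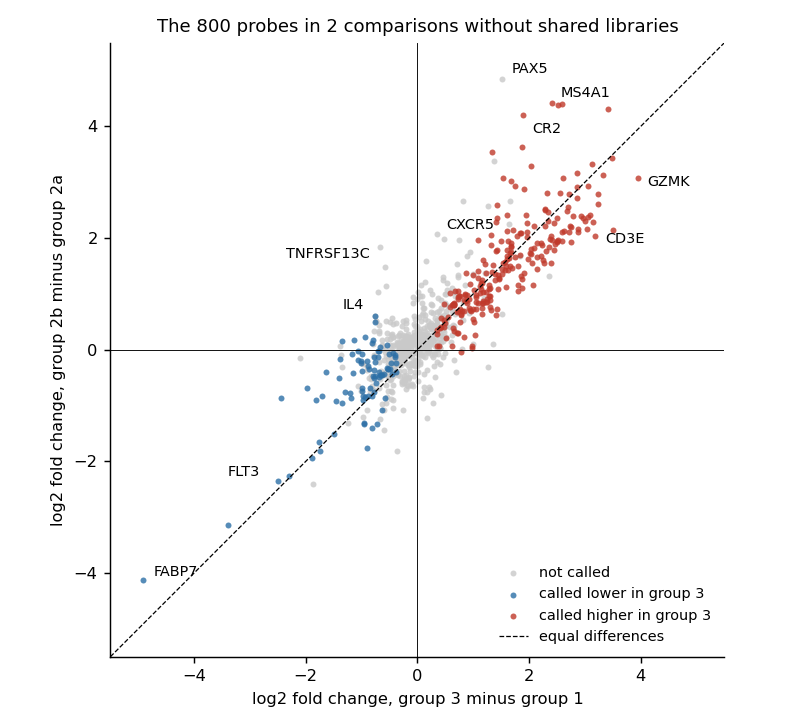
Log2 fold changes of the 800 probes for group 3 minus group 1 (horizontal) and group 2b minus group 2a (vertical), colored by their call in the first comparison, with a dashed line where both are equal. Most called probes lie along the line (r = 0.861), and PAX5, CR2, CXCR5 and TNFRSF13C lie above it.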

How the data were processed

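The authors extracted RNA from FFPE tissue and measured it on the nCounter Canine IO Panel (780 gene and 20 reference probes), in which barcoded probes are counted without amplification. The deposited values are signal, that is counts after quality control and normalization by the authors in nSolver at default settings, and the submitters' processing notes name R 3.3.2. In each library 100% of values, apart from 18 raised to 1 in 4 libraries, were whole multiples of 1 step within 0.01 (steps between 0.909 and 1.89), so that counts could be recovered. They summed to between 484696 and 1315188 per library.

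Log2 of the value plus 1 was fitted in limma 3.58.1 (R 4.3.3; lmFit, eBayes with trend) with 4 group means over 21 libraries. P values were two-sided, adjusted over 800 probes by Benjamini-Hochberg and called at 0.05. For the second scale each library was shifted to an equal median of its log2 values. Differences in library medians and DV200 were tested with exact permutation tests. Alternatives were quantile normalization, TMM factors, a pseudocount of 8, a minimum mean of 20, no trend, the replicate number as a block, DV200 as a covariate (also without the library whose DV200 differs between the sources, added after seeing the data), fits without the pooled libraries or of groups 3 and 1 only, each library left out, edgeR 4.0.16 and DESeq2 1.42.0 on recovered counts with the deposited factors. The scripts were tested on simulated data.

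Members and gene lists were chosen with earlier results of these data known. Named genes were the 12 highest and 12 lowest probes called on both scales without overlap and with a mean of at least 20 in the higher group, members of the gene lists, the probe called in opposite directions on the 2 scales, and the 5 probes with the smallest p for the difference between contrasts. CD1A6 falls outside this rule and was chosen after its values were seen. Some genes of the panel are not reported here. Of 800 probes, 773 matched the RefSeq annotation UU_Cfam_GSD_1.0 by symbol and 4 by gene ID. The other 23 are named as in the deposited file. Chi-squared per probe between replicates was at least 55.2, so the spread between dogs exceeds counting error. No sequences or coordinates were used.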

Additional observations from a re-analysis of the deposited data

Results flagged for a closer look

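Among 184 sets of 5 values (90 genes, the library median and DV200, each in groups 3 and 1), 15 held 1 library far from the other 4, with a gap to its nearest neighbor above 0.71 of the whole range. For normally distributed values chance gives about 1 in 20 such sets. The gaps were taken on normalized counts and not on log2 values, so that this rate may not hold here. Of the 15, 8 fell on group 3 replicate 3. It was highest of group 3 for MS4A1 (1039.5 normalized counts), PAX5 (784), CR2 (898), CXCR5 (353), TNFRSF13C (2497), BTK (1228) and TLR10 (244), and lowest for GZMB (613). TLR10, a Toll-like receptor that human B cells express, thus stood with the B cell genes in this library, although it was lower in group 3 as a whole. These genes are not independent of each other, since all were read from the same extract.

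Group 3 replicate 1 was highest for SH2D1A (4324). In group 1, replicate 2 was highest for SPP1 (3079) and CLU (3791), replicate 3 for PRF1 (685), replicate 1 for TNFRSF13C (1713), replicate 4 for CD1A6 (534) and replicate 5 for CDKN2C (1328).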

How the results depend on the processing

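Of 81 named genes called on the deposited scale, 42 kept their call and direction under all 23 alternatives, and 1, MAPKAPK2, changed sign (-0.31 with equal medians and -0.034 after quantile normalization). Genes not called that changed sign were FOXP3 (-0.49 with equal medians, -0.069 with TMM factors), CXCR5 (-0.30 with equal medians, -0.21 after quantile normalization and between -0.029 and 0.53 with 1 library left out, negative without group 3 replicate 3), CD80 (-0.083 with equal medians), MKI67 (-0.66 with equal medians, -0.41 after quantile normalization, -0.25 with TMM factors and between -0.15 and 0.25 with 1 library left out) and B2M (-0.60 with equal medians, -0.19 with TMM factors, -0.15 with DV200 as a covariate, -0.21 when group 3 replicate 5 was also left out, and between -0.0495 and 0.18 with 1 library left out, negative without group 1 replicate 1 or 5). With DV200 as a covariate 22 named genes lost their call, among them GATA3, CD244, IL4, CCL19, MRC1, ESR2 and MAPKAPK2 beside those given above. Leaving out group 3 replicate 5 as well, 36 lost it. In a fit of groups 3 and 1 only 10 lost it and without the pooled libraries 7. The count of 319 called probes was 196 with DV200 as a covariate, 137 when group 3 replicate 5 was also left out and 206 (178 higher, 28 lower) at a fold of at least 2. The count of 442 with equal medians was 271 with DV200 (73 higher, 198 lower), 174 when group 3 replicate 5 was also left out (46 higher, 128 lower), and 271 at a fold of at least 2 (90 higher, 181 lower). Other settings gave between 272 and 364 calls on the deposited scale (equal medians apart) and between 400 and 470 with equal medians. Leaving out 1 library gave between 264 and 320 and between 375 and 446 calls. For the difference between contrasts every alternative gave 0 calls but the fit without group 3 replicate 3, which gave 13, and the fits without 1 library gave between 0 and 13. Same-numbered replicates of groups 3 and 1 did not deviate together (r between -0.199 and 0.146), so the numbers were not read as pairs. With the replicate block 288 probes were called on the deposited scale, 414 with equal medians and 0 for the difference between contrasts, and of the 90 named genes 3 lost their call. The difference in library medians ran between 107 and 133 and that in DV200 between 3.71 and 5.39 points when 1 library was left out. Of the 49 probes with a mean under 20, 7 were called lower on the deposited scale and 31 with equal medians, and values there lie near the floor of the assay. Causes of these changes were not tested.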
